A study of Homo sapiens with 15 samples.

Results

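The genes described here encode the nuclear subunits of respiratory complexes I, II, III and V, with cytochrome c oxidase (complex IV) left aside. They were chosen by symbol: NDUFA, NDUFB, NDUFC, NDUFS or NDUFV followed by a number, SDHA to SDHD, symbols beginning with UQCR or ATP5, and CYC1. Of 85 matching symbols, 16 pseudogenes were left out and every other one had at least 30 reads over all libraries, which left 69 members of 18485 genes read: 37 of complex I, 4 of complex II, 10 of complex III and 18 of complex V, the ATP synthase. The deposited tables use older ATP synthase names (ATP5G2 for ATP5MC2, ATP5O for ATP5PO, ATP5H for ATP5PD), which are kept here.

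Complex I takes electrons from NADH and complex II takes them from succinate. Both pass them to ubiquinone, complex III hands them on to cytochrome c, and the ATP synthase uses the resulting proton gradient to make ATP. Most subunits of these complexes are encoded in the nucleus and imported, while the remainder come from mitochondrial DNA. Glioma cells in culture use both glycolysis and respiration, and ZBTB18 is a zinc-finger transcriptional repressor studied in glioblastoma.

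The study asked how forms of ZBTB18 alter gene expression in SNB19, an established human glioblastoma line. All 15 libraries came from SNB19 cells grown in DMEM with serum and given a lentivirus, with 3 libraries in each of 5 groups. EV received an empty vector, FL the full-length ZBTB18, FL-mut a mutated full-length form, SF-Nte a short form and SF-mut the mutated short form. The labels give neither the altered residues nor what Nte stands for, and do not say whether replicates were separate cultures, so a p-value here speaks only of variation from library to library. Where RNA from such cultures is pooled, fewer cells of a kind and less RNA per cell cannot be told apart.

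Total counts were 1274474 to 1930245 per library in EV, 803316 to 1393060 in FL and 865997 to 1313573 in FL-mut. The short forms were shallower, at 432611 to 603155 (SF-Nte) and 315693 to 597414 (SF-mut). Depth therefore moved with the form of ZBTB18. Its part in the results below was not tested. The barcode names in the labels are BC1 to BC12 in the other groups, but BC1_1, BC2_1 and BC3_1 in SF-mut. What that suffix marks is not given, and it cannot be told apart from the SF-mut group. ZBTB18 itself averaged 6.17 CPM in EV (reads scaled to a common library size with TMM factors). With the constructs it averaged 1442 ± 1408 CPM (FL), 3522 ± 3040 CPM (FL-mut), 301.2 ± 147.2 CPM (SF-Nte) and 1793 ± 1592 CPM (SF-mut), with SD and n = 3. Each construct group differed from EV (edgeR quasi-likelihood test, Benjamini-Hochberg adjusted p = 0.0013, 0.0017, 0.049 and 0.0046 in that order), and these counts do not separate vector from endogenous transcripts. Mean ZBTB18 was higher with each mutated form than with its unmutated form. FL and FL-mut libraries overlapped (623 to 3067 and 907 to 6858 CPM), while SF-Nte lay below SF-mut (199 to 470 and 853 to 3631 CPM). Mutation and ZBTB18 level cannot be told apart in these pairs. Of the glioma markers examined, VIM had the highest mean in each group, though not in each library, and S100B and GFAP were near 0. The 7 glioma markers summed to 238 to 1221 CPM per library, against at most 30.8 for immune, 21.4 for endothelial, 41.9 for neuronal and 151 for epithelial markers.

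In the empty-vector cells, transcripts of many small membrane subunits were far more abundant per length than those of the catalytic subunits given below. UQCRQ, a small subunit of complex III, stood highest at 7445 ± 1823 CPM per kb (SD, n = 3), followed by ATP5J2, a small membrane subunit of the ATP synthase, at 7212 ± 1723 CPM per kb. These levels overlapped between libraries, so their order is not resolved. UQCRB, a ubiquinone-binding subunit of complex III, reached 4393 CPM per kb, and NDUFB2, an accessory subunit of the complex I membrane arm, reached 4234 CPM per kb. The median level was 3812 CPM per kb over the 4 small membrane subunits of the ATP synthase, 3520 over its 3 c-ring genes and 2206 over the 6 small subunits of complex III. In complex I it was 988 CPM per kb over 20 membrane-arm members and 128 over 16 matrix-arm members.

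The catalytic subunits lay lower, but so did some other members. The accessory subunits NDUFB10, NDUFA10 and NDUFS6 had 22.4, 23.7 and 24.7 CPM per kb. ATP5L2, counted with the small membrane subunits of the ATP synthase, had 7.07. NDUFS1, which carries iron-sulfur clusters in complex I, stood at 39.8 CPM per kb. NDUFV1, the NADH-binding subunit, had the lowest mean in complex I, 18.4 ± 27.6 CPM per kb (1.93 to 50.3). It overlapped NDUFB10 (7.58 to 48.2), so that place is not resolved. SDHA, the flavoprotein of succinate dehydrogenase, had 11.5 ± 3.84 CPM per kb and its iron-sulfur partner SDHB had 80.4 ± 64.5. CYC1, cytochrome c1, had 19.5 CPM per kb and UQCRFS1, the Rieske iron-sulfur protein, had 3.35. ATP5A1 and ATP5B encode the alternating alpha and beta subunits of the F1 head, yet they were read at 247 ± 92.6 and 44.5 ± 27.1 CPM per kb. The count of ATP5B was 5.63 to 77.6% of that of ATP5A1 across the 15 libraries.

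Abundance was also related to transcript properties. Across the 69 members, the EV level in CPM, not divided by length, had a Spearman correlation of -0.39 with transcript length and -0.34 with GC content. This is a description across genes that share the same libraries. Dividing by length enlarges the gap between short and long transcripts. Whether counts of these Nanopore cDNA reads rise with transcript length was not tested. Without the division, the medians were still 1464 CPM over the small subunits of complex III and 17.9 CPM over its 2 redox subunits. The order of single genes changed: ATP5J2 (mean 2329 CPM) lay below ATP5G3 (2963) and UQCRB (2834). In complex I, NDUFV1 (27.8 CPM) lay above NDUFB10 (15.8), NDUFS6 (20.1) and NDUFS3 (26.2).

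The test of any difference over the 5 groups called no member at an adjusted p of 0.05 with edgeR, while 1.12% of all 6767 tested genes were called. Of the 69 members, 66 had enough counts to be tested. ATP5D, the delta subunit of F1, ATP5L2, a copy of the gene for the g subunit, and the readthrough ATP5J2-PTCD1 did not, with 65, 56 and 48 counts in all. At an unadjusted p of 0.05, 20 of 66 members passed, against 16.3% of all tested genes, and DESeq2's likelihood ratio test called 9 members and 652 genes. The 6 members of lowest p were NDUFA2, NDUFA12, ATP5G2, NDUFS5, NDUFS4 and ATP5O, and in each of them the FL-mut libraries were low.

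NDUFA2, an accessory subunit of the complex I matrix arm encoded on chromosome 5 (140638740 to 140647785, minus strand), was read at 435, 584 and 857 CPM in the EV libraries. FL gave 505, 458 and 603 CPM, and FL-mut gave 283, 244 and 240. SF-Nte gave 751, 655 and 725 CPM, and SF-mut gave 381, 413 and 599. All 3 FL-mut libraries were below the other 12, and SF-Nte did not overlap SF-mut. The log2 difference of FL-mut from EV was -1.29 ± 0.27 (SE), with a 95% interval of -1.87 to -0.71 and an edgeR adjusted p of 0.075. The test over the 5 groups gave an edgeR adjusted p of 0.061, or 0.040 with the replicate number as a block, a setting qualified below. Without the block it ran from 0.039 to 0.20 when single libraries were left out, and it was under 0.05 without replicate 1 of EV (0.039), replicate 2 of SF-mut (0.045) or replicate 3 of SF-mut (0.048). DESeq2 gave an adjusted p of 0.000104.

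NDUFA12, an accessory subunit at the matrix arm of complex I (chromosome 12, 94897055 to 95003770, minus strand), had 557, 597 and 958 CPM in EV. FL libraries had 716, 688 and 818 CPM and those of FL-mut 379, 397 and 449. SF-Nte libraries had 1027, 1259 and 981 CPM, above every other library, and SF-mut libraries had 722, 502 and 880. The FL-mut libraries were again the lowest. FL-mut differed from FL by -0.86 ± 0.26 on the log2 scale (95% interval -1.42 to -0.30, edgeR adjusted p = 0.28). SF-Nte differed from EV by 0.63 (95% interval 0.08 to 1.18, edgeR adjusted p = 0.61). Over the 5 groups the edgeR adjusted p was 0.087, and it was 0.040 without replicate 2 of SF-mut, 1 of 15 single omissions. Each of those 15 fits called 0 to 3 members in all.

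ATP5G2, which encodes the same mature c subunit of the rotor ring as ATP5G1 and ATP5G3 (chromosome 12, 53632726 to 53677408, minus strand), had 2277, 2161 and 2993 CPM in EV. FL libraries had 2872, 1795 and 2431 CPM, FL-mut libraries 1679, 845 and 1288. SF-Nte libraries had 3762, 3444 and 2856 CPM, SF-mut libraries 2064, 1609 and 2393. The FL-mut values lay below all EV and FL values, and the SF-mut values lay below all SF-Nte values. The log2 difference of FL-mut from FL was -0.90 (95% interval -1.47 to -0.32, edgeR adjusted p = 0.27), and that of SF-mut from SF-Nte was -0.73 (95% interval -1.30 to -0.16, edgeR adjusted p = 0.57). With the replicate number as a block, the edgeR adjusted p over the 5 groups went from 0.093 to 0.033. Same-numbered libraries correlated above 0.1 in all 3 pairs only between EV and FL and between FL and SF-mut. A block over all 5 groups, used here and for NDUFA2, is therefore not borne out by these libraries.

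NDUFS5, an accessory subunit of complex I, had 967, 1064 and 1303 CPM in EV. FL libraries had 1232, 1226 and 1219 CPM, FL-mut libraries 822, 781 and 792. SF-Nte libraries had 1337, 1332 and 1300 CPM, SF-mut libraries 915, 906 and 1025. Its replicates lay close together outside EV, and the mutated and unmutated forms did not overlap in either pair. NDUFS4, an accessory subunit that is mutated in inherited complex I deficiency, had 567, 510 and 725 CPM in FL and 330, 286 and 371 in FL-mut (log2 difference -0.87 ± 0.23, edgeR adjusted p = 0.22). ATP5O, the stalk subunit that ties F1 to the peripheral stalk, had 712, 629 and 905 CPM in FL and 441, 325 and 471 in FL-mut (log2 difference -0.86 ± 0.25, edgeR adjusted p = 0.27). Each of these genes had an edgeR adjusted p of 0.18 over the 5 groups.

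**Figure D1:**
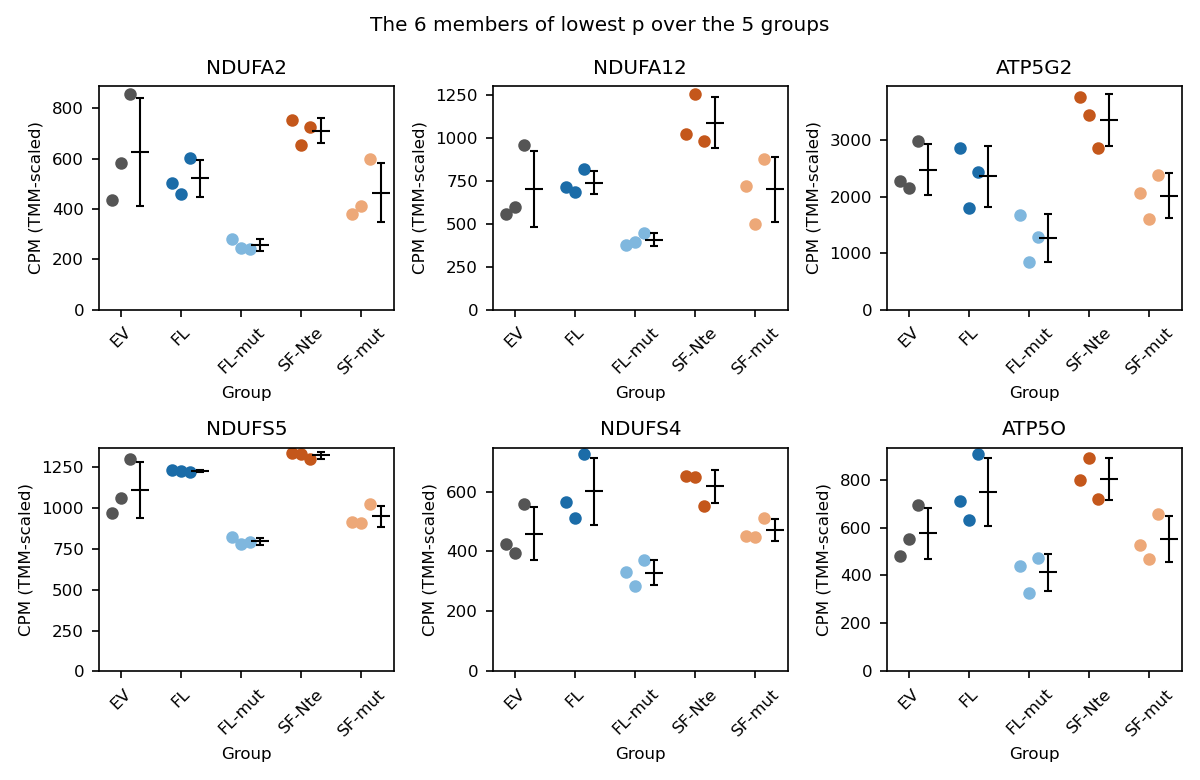
Level of the 6 members of lowest p over the 5 groups, in TMM-scaled CPM on linear axes starting at 0, by group; points are single libraries, and bars show the mean and SD of 3. The FL-mut libraries of NDUFA2 lie between 240 and 283 CPM, under all other libraries.

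Against the empty vector, the members of FL were centred where all genes were. The median log2 difference was -0.01 over 66 members and -0.01 over all tested genes, with 31 members above 0 and 35 below. edgeR called 0 members (0.31% of all genes), and DESeq2 called 0. At an unadjusted p of 0.05, 2 members passed (7.64% of all genes), 2 of them higher (3.75%) and 0 lower (3.89%). The libraries did not overlap in 2 higher members (8.75% of all genes) and 4 lower ones (8.17%). The 2 of unadjusted p under 0.05 were SDHA and NDUFA6, an accessory subunit of complex I whose EV and FL libraries overlapped. SDHA had 33.5, 20.4 and 18.7 CPM in EV and 95.01, 57.2 and 38.7 in FL, groups that did not overlap, with a log2 difference of 1.39 ± 0.62 (edgeR adjusted p = 0.60). NDUFA6 differed by 0.64 ± 0.27 (edgeR adjusted p = 0.54).

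FL-mut stood further from EV in the same genes, with the same control libraries. Its median log2 difference was -0.20 over the members and 0.04 over all tested genes. edgeR called 0 members (0.192% of all genes) and DESeq2 called 5. The share of all genes that DESeq2 called here is not given, so its count is not a result about the members. At an unadjusted p of 0.05, 13 members passed (10.5% of all genes): 11 were lower (4.73%) and 2 higher (5.75%). In 15 members every FL-mut library was below every EV library (9.07% of all genes), and in 1 every library was above (8.36%). Besides NDUFA2 and ATP5G2, the lowest p among lower members belonged to NDUFA7, a small matrix-arm accessory subunit, at -0.99 ± 0.28 (edgeR adjusted p = 0.20).

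SF-Nte against EV had a median of 0.17 over the members, where all tested genes had -0.13. edgeR called 0 (0.0443% of all genes), DESeq2 called 0, and 2 members had an unadjusted p under 0.05 (7.23%), 2 higher (1.66%) and 0 lower (5.57%). These were NDUFA12 and SDHD, a membrane anchor of succinate dehydrogenase. With GC content and length smoothed out of each library, the median of the members turned to -0.022, with 29 above 0 and 37 below. At that level 1 member was higher and 4 lower (6.55% of all genes lower, 8.07% in either direction). In 7 members all SF-Nte libraries lay above all EV libraries (6% of all genes), and in 2 below (11.3%). SF-mut against EV, again with the same controls, had a median of -0.11 over the members and -0.02 over all genes. edgeR called 0 (0.0591%), DESeq2 called 0, and 4 members had an unadjusted p under 0.05 (5.36%). UQCRB and NDUFB6 were the 2 lower ones (3.77% of all genes), UQCRC1 and SDHA the 2 higher ones (1.6%). UQCRC1, a core subunit of complex III, had 98.5, 83.1 and 80.1 CPM in EV and 71.9, 814 and 47.2 in SF-mut. Only replicate 2 of SF-mut lay above EV, and the log2 difference was -0.56 without it. The libraries did not overlap in 1 higher (2.9%) and 2 lower members (7.68%).

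Of the 7 comparisons, that of the mutated with the unmutated full-length form had the median farthest from 0 for these genes. Mean ZBTB18 was also higher in FL-mut, as given above, and mutation and level cannot be told apart. FL-mut against FL had a median log2 difference of -0.34 over the members and 0.02 over all tested genes, with 43 of 66 members below 0. edgeR called 0 members (0.0887% of all genes, lowest adjusted p 0.22), and DESeq2 called 8, again without a share of all genes to set beside it. At an unadjusted p of 0.05, 29 members passed (12.1% of all genes): 19 were lower (4.83%) and 10 higher (7.3%). In 24 members every FL-mut library lay under every FL library (9.44% of all genes), and in 2 above (8.97%). With transcript GC content and length smoothed out of each library, 8 members were lower at that level (3.95% of all genes) and 7 higher, 15 in all (11%).

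The short forms shared no library with that contrast, but same-numbered libraries of FL-mut and SF-mut deviated from their group means together in replicates 1 and 2. Over 1975 genes the correlation of their deviations was 0.61 in replicate 1, 0.67 in replicate 2 and 0.02 in replicate 3, so the pairs are not separate evidence. SF-mut against SF-Nte had a median of -0.25 over the members and 0.05 over all tested genes. edgeR called 0 members (0% of all genes; lowest adjusted p 0.57) and DESeq2 called 0. Of the 66 members, 16 had an unadjusted p under 0.05 (8.33% of all genes), 12 lower (2.48%) and 4 higher (5.85%). The groups did not overlap in 22 lower (6.62%) and 3 higher members (5.75%). With GC content and length smoothed out, 1 member was lower at that level (2.1% of all genes) and 2 were higher, 3 in all (7.49%). Members lower at that level in the short-form and in the full-length pair were ATP5I, NDUFA12, NDUFA1, ATP5O, NDUFA2, ATP5G2, ATP5E and NDUFS5. Those higher in the pairs were NDUFS6, NDUFB11, NDUFB7 and NDUFS7. NDUFS6, an accessory subunit of complex I, had 19.6, 200.3 and 10.3 CPM in SF-mut, and NDUFB11 had 6.54, 493 and 20.5. Without replicate 2 of SF-mut their log2 differences from SF-Nte were 0.11 and -0.46. Whether the pairs differed from each other was tested as an interaction: edgeR called 0 members (0.0296% of all genes), and DESeq2 called 0. Members with an unadjusted p under 0.05 numbered 0 (4.65% of all genes, 2.66% higher and 1.99% lower).

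By complex, the ATP synthase had the lowest median in both pairs. In FL-mut against FL the median log2 difference was -0.53 in complex V, -0.30 in complex III, -0.19 in complex I and 0.00 in complex II. In SF-mut against SF-Nte it was -0.39, -0.30, -0.16 and -0.02 in the same order. That order in the short-form pair was not stable. With GC content and length smoothed out the median was -0.189 in complex III and -0.182 in complex V, and without 3 libraries (replicate 1 of EV, replicate 2 of FL-mut and of SF-mut) it was -0.47 in complex II and -0.37 in complex V. Of 15 tested ATP synthase members, 13 were below 0 in each pair, and the libraries did not overlap in 8 lower members of each (9.44 and 6.62% of all genes). In complex V no member was higher at an unadjusted p of 0.05 in either pair, while 7 were lower in FL-mut (4.83% of all genes) and 5 in SF-mut (2.48%). The 4 peripheral-stalk genes, whose products hold F1 still against the rotor, had a median of -0.72 in FL-mut against FL and all were below 0.

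Summed over its 18 members, complex V had 23130, 21896 and 24256 CPM in FL and 18402, 12563 and 16318 in FL-mut. SF-Nte libraries had 26642, 25447 and 24605 CPM, SF-mut libraries 19813, 14379 and 22314. Neither pair overlapped. The EV libraries, at 20045, 19284 and 26316 CPM, lay above all FL-mut libraries and overlapped the other groups. For all 69 members the mean sum was 57575 ± 8798 CPM in EV, with SD and n = 3 here and in the next sentence. The full-length forms had 62097 ± 4642 CPM (FL) and 46926 ± 3454 CPM (FL-mut), and the short forms 63443 ± 3313 CPM (SF-Nte) and 51323 ± 5498 CPM (SF-mut).

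**Figure D2:**
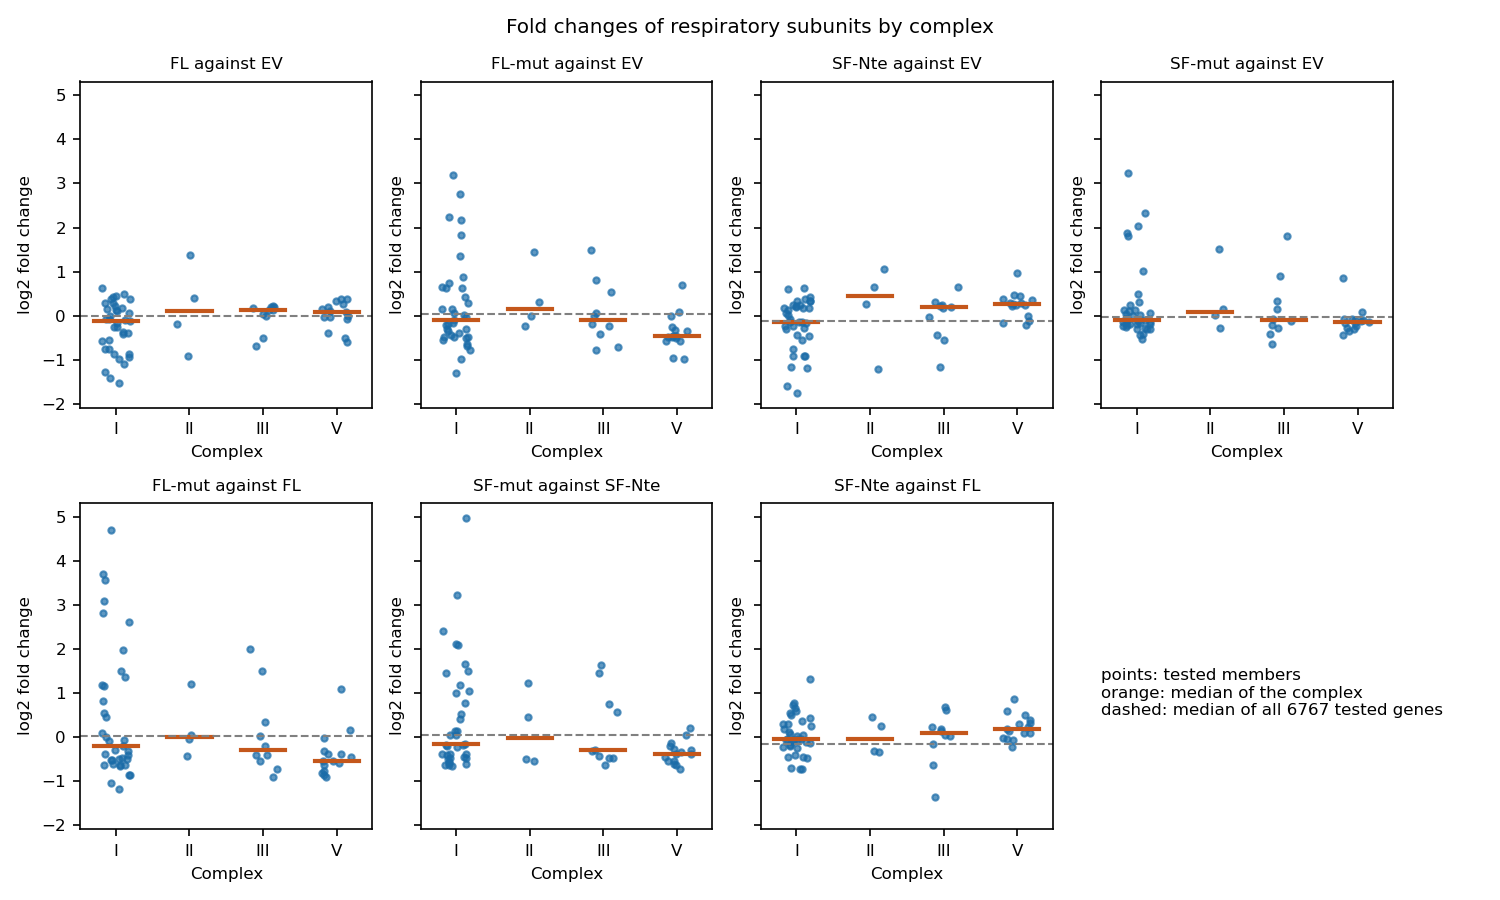
Log2 fold change of each tested member, by complex, in the 7 comparisons between groups; orange bars are medians of the complex and dashed lines the median of all 6767 tested genes. In FL-mut against FL the median of complex V is -0.53, and 13 of its 15 members lie below 0.

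Complex I had members on both sides. In FL-mut against FL, 9 members were lower (4.83% of all genes) and 8 higher (7.3%) at an unadjusted p of 0.05. In SF-mut against SF-Nte, 6 were lower (2.48%) and 4 higher (5.85%). The higher members depended on a few libraries. They were reread without replicate 1 of EV, replicates 2 and 3 of FL-mut and replicate 2 of SF-mut. FL-mut was then a single library, with 32 of 37 members below 0 against FL and a median of -0.43. In SF-mut against SF-Nte, 2 were lower and 0 higher at an unadjusted p of 0.05 (2.59% of all genes lower, 6.05% in either direction). The higher members included NDUFS7 and NDUFS8, iron-sulfur subunits near the ubiquinone site, with NDUFA10 and NDUFB10. NDUFS7 was read at 20.8, 22.4 and 0.968 CPM in FL and at 6.06, 931 and 221 in FL-mut, and at 11.6, 11.3 and 14.9 CPM with SF-Nte and 50.7, 1128 and 24.6 with its mutant. NDUFA10 was read at 34.7, 4.98 and 13.6 CPM in FL and at 64.6, 578 and 81.1 in FL-mut. In both genes replicate 2 of FL-mut stood far above the other libraries of its group. The log2 differences carried wide errors, 4.70 ± 1.74 for NDUFS7 and 3.71 ± 1.12 for NDUFA10 (edgeR adjusted p = 0.33 and 0.27).

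In FL-mut against FL, 1 small and 1 core subunit of complex III were higher at an unadjusted p of 0.05 (7.3% of all genes). UQCR11, the small subunit, had 307, 428 and 196 CPM in FL and 266, 1591 and 762 in FL-mut. UQCRC1, the core subunit, had 74.9, 61.0 and 48.4 CPM in FL and 122, 546 and 73.0 in FL-mut. Both were highest in replicate 2 of FL-mut. The 3 lower members at that level (4.83%) were small subunits. UQCRB had 2533, 3247 and 3500 CPM in FL and 1662, 1388 and 1928 in FL-mut, which did not overlap (log2 difference -0.90 ± 0.29, edgeR adjusted p = 0.32). UQCR10 had 1277, 1383 and 1377 CPM in FL and 918, 805 and 748 in FL-mut (log2 difference -0.71 ± 0.23, edgeR adjusted p = 0.32). UQCRC2, a core subunit with no redox group, differed by 0.03, with a 95% interval of -0.64 to 0.70. CYC1 differed by -0.19, with an interval of -1.87 to 1.49, and UQCRFS1 by 0.34, with an interval of -1.18 to 1.85. At their depth, differences in these redox subunits were not resolved.

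In complex II, SDHA lay higher in FL than in EV as given above, while its partner SDHB overlapped. SDHB had 176, 69.2 and 32.9 CPM in EV and 69.4, 49.8 and 29.04 in FL. Its values in FL-mut were 53.5, 177 and 116 CPM. SDHC, a membrane anchor, differed between FL-mut and FL by -0.04, with a 95% interval of -0.81 to 0.72. Set beside each other, SDHA made up 16.0 to 36.2% of the counts of SDHA and SDHB in EV, 53.5 to 57.8% in FL, 16.4 to 57.6% in FL-mut, 50.8 to 62.1% in SF-Nte and 35.0 to 47.4% in SF-mut. This ratio was chosen after the values were seen and was not tested.

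The unmutated short and full-length forms were also set against each other. SF-Nte against FL had a median of 0.07 over the members and -0.15 over all tested genes. edgeR called 0 members (1.06% of all genes) and DESeq2 called 0. At an unadjusted p of 0.05, 2 members passed (13.2% of all genes): NDUFA12 was higher (5.22%) and NDUFB2 lower (7.95%). NDUFB2 had 2293, 3337 and 2464 CPM in FL and 1811, 1475 and 1609 in SF-Nte, which did not overlap (log2 difference -0.73 ± 0.25, 95% interval -1.25 to -0.20, edgeR adjusted p = 0.19). The libraries did not overlap in 14 higher members (9.86% of all genes) and 4 lower ones (14.6%).

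Promoter sequence was examined in RefSeq windows running from 250 bases before to 50 after an annotated start (GRCh38.p14). Of the 69 members, 52 were matched, with 63 windows. Shown are stretches ahead of the start that lie in no annotated exon, for a pair of members lower in FL-mut than in FL (NDUFB4 and ATP5H), a member higher there (NDUFB7) and NDUFA12. NDUFB4, a membrane-arm subunit of complex I, differed by -0.66 (edgeR adjusted p = 0.33), ATP5H, a peripheral-stalk subunit, by -0.80 (0.33), and NDUFB7, a membrane-arm subunit of the intermembrane-space side, by 1.37 (0.41). Capitals mark matches on either strand to CAGATG, the core of the ZBTB18 E-box, and CCGGAAG, an ETS-family motif bound by GABP. They also mark GCATGCGC, a single fixed spelling of the variable NRF1 motif. The stretches lie at chr12:95003771-95003947 (minus strand), chr3:120596086-120596308 (plus), chr19:14572067-14572316 (minus) and chr17:75046986-75047183 (minus).
NDUFA12: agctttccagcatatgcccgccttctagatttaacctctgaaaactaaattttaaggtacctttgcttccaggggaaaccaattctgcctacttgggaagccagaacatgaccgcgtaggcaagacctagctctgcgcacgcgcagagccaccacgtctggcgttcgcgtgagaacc
NDUFB4: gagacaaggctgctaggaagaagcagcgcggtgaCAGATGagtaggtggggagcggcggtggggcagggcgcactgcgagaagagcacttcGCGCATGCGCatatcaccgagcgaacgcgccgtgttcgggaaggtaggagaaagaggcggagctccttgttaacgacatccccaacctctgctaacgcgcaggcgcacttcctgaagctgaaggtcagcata
NDUFB7: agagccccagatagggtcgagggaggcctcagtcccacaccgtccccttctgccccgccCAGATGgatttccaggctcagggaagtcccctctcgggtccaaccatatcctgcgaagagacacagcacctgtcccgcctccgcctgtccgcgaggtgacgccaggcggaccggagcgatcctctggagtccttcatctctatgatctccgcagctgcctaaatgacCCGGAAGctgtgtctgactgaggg
ATP5H: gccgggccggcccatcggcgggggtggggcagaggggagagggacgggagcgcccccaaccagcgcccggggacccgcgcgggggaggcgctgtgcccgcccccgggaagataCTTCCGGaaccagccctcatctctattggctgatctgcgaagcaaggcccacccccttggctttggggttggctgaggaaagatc
NDUFB4 holds the E-box letters and a palindromic NRF1 match read on both strands, and NDUFB7 the E-box and ETS letters. ATP5H holds the ETS letters on the reverse strand, and NDUFA12 none of these exact letters. Other spellings of the motifs were not searched, so an unmarked stretch may still hold a site.

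Over whole windows, CAGATG or its reverse complement was present in 11.1% of member windows and 14.7% of all 35116 windows. GCATGCGC was present in 20.6 and 3.05%, CCGGAAG in 25.4 and 10.3%, and AANATGGC, a YY1 motif, in 36.5 and 6.58%. The YY1 letters contain ATG and part of each window lies after the start, where coding sequence may begin. Members with the E-box letters were ATP5O and NDUFB4, lower in FL-mut than in FL, NDUFB7 and NDUFB11, higher there, and NDUFA6, NDUFS1 and NDUFS3. A match is a description of letters and was not tied to binding.

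Most of the summed variance of the members lay along a single axis. The first principal component of their log2 CPM, not scaled per member, held 70.7% of the variance over the 15 libraries and the next 8.16%. Members of wide spread therefore weighed most. Its largest loading was that of NDUFS7 (0.47), ahead of NDUFB11 and NDUFV1 (0.31 each) and of NDUFB10 and NDUFA10 (0.27 each). NDUFS7 ranged from 0 to 823 reads per library, NDUFV1 from 0 to 194 and NDUFB10 from 1 to 156. UQCRQ, the member with the most reads, had a loading of -0.05. Scores were highest in replicate 2 of FL-mut (10.95), replicate 2 of SF-mut (10.89), replicate 3 of FL-mut (5.18) and replicate 1 of EV (4.23), and lowest in replicate 3 of FL (-6.47) and replicate 3 of EV (-5.41). The order thus cut across the groups. In the median member 43.8% of the variance lay between groups, and in the median tested gene 36.9%.

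Transcript GC content moved with this axis, but not in every member. CYC1 (61.8% GC) and ATP5G2 (56.7%) had loadings of -0.08 each, while NDUFA10 (50.6%) had 0.27 and NDUFC1 (49.4%) 0.20. The tested members had a median GC content of 49.9% and a median length of 814 bases, against 47.2% and 2267 bases for all tested genes. Each member's deviation from its own mean had a Spearman correlation with GC content of 0.52 in replicate 1 of EV, 0.55 in replicate 2 of FL-mut, 0.51 in replicate 2 of SF-mut and -0.55 in replicate 3 of FL, across 66 members. Across 6709 tested genes the same libraries gave 0.27, 0.30, 0.30 and -0.27. In a split made after the data were seen, the 16 members of at least 55% GC had a median deviation of 1.88 in replicate 2 of SF-mut, 1.64 in replicate 2 of FL-mut, 0.87 in replicate 1 of EV and -1.22 in replicate 3 of FL.

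**Figure D3:**
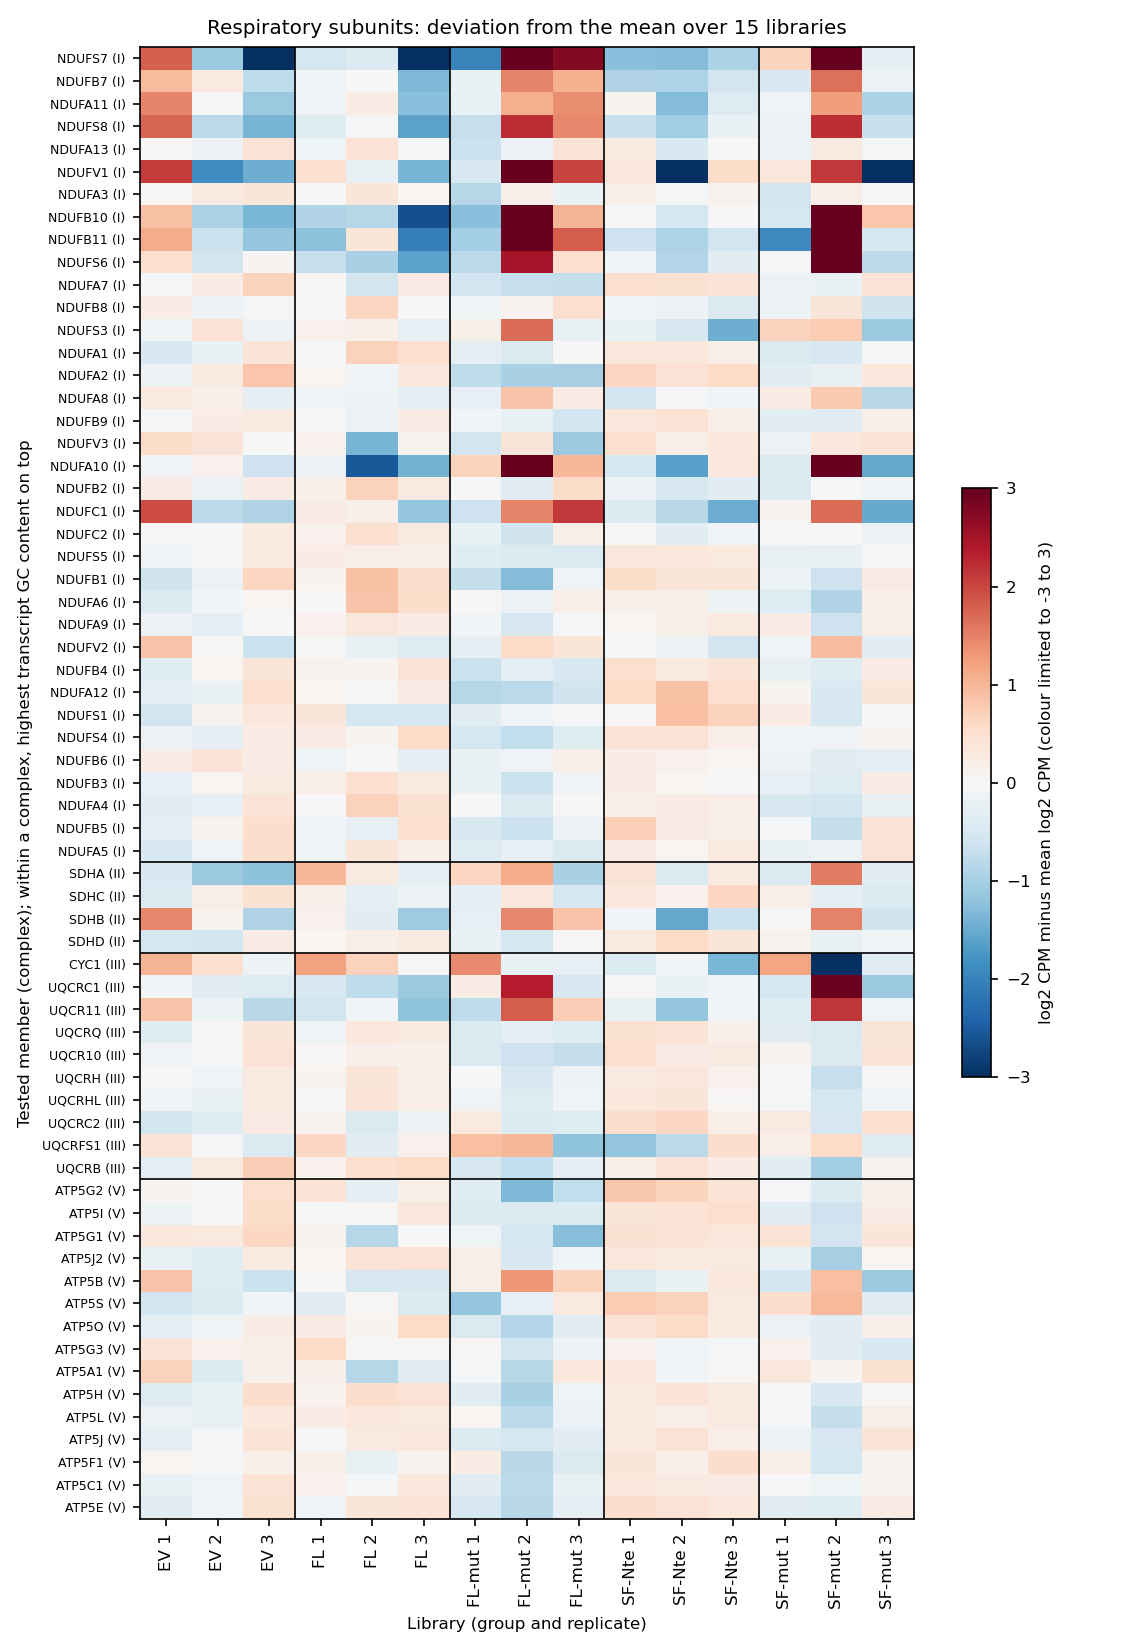
Deviation of log2 CPM of tested members from their means over 15 libraries, with libraries in columns and members in lines grouped by complex, highest transcript GC content on top; colours are limited to -3 to 3. High values gather toward the top of complex I in replicate 2 of FL-mut and of SF-mut, and not at the top of complex V.

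**Figure D4:**
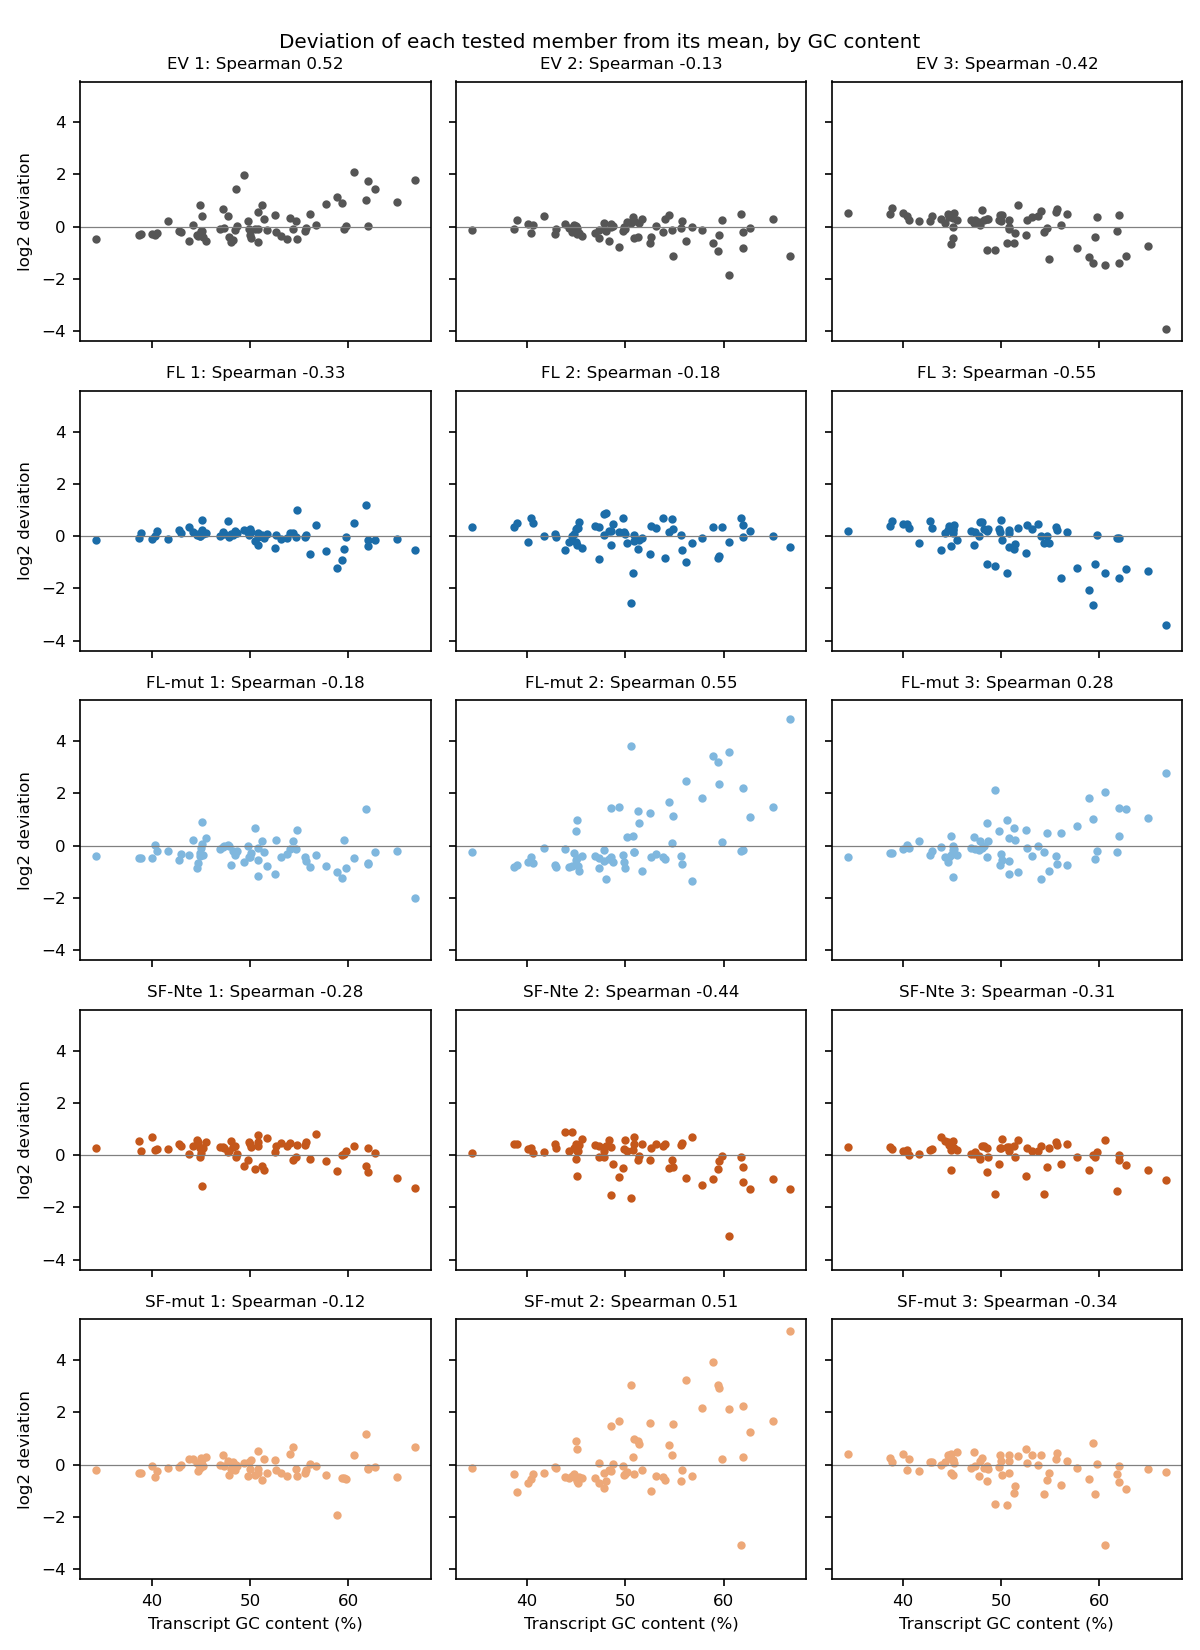
Log2 deviation of each of 66 tested members from its own mean (vertical axis) against its transcript GC content in percent (horizontal axis), 1 panel per library, with the Spearman correlation in the panel title. The correlation runs from -0.55 in replicate 3 of FL to 0.55 in replicate 2 of FL-mut.

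Results were therefore recomputed with GC content and length smoothed out of each library, and without the libraries that stood apart. With the correction, the 8 lower members in FL-mut against FL stood beside 3.95% of all genes, and the median was -0.18. In SF-mut against SF-Nte, the 1 lower member stood beside 2.1% of all genes, and the median was -0.12. Of the 15 ATP synthase members, 13 and 14 were below 0 in the full-length and short-form pairs. An unadjusted p under 0.05 was found in 3 and 0 of them (11 and 7.49% of all genes). Without replicate 1 of EV and replicate 2 of FL-mut and SF-mut, which brought the tested members to 67, 16 were lower and 6 higher in FL-mut than in FL (3.91% of all genes lower, 8.2% in either direction). In SF-mut against SF-Nte, 5 were lower and 0 higher (2.69% of all genes lower, 5.99% in either direction). Without replicate 3 of FL-mut as well, its lone library was assumed to vary like the others. The median log2 difference from FL was then -0.41, with 52 of 67 members below 0.

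Single genes of high GC content depended on these libraries. Without replicate 2 of SF-mut, NDUFB11, a membrane-arm subunit of complex I, differed between SF-mut and SF-Nte by -0.46 in place of 3.23. With all 4 libraries left out, NDUFS7 differed between FL-mut and FL by -1.29, in place of 4.70, and NDUFB10 by -0.02 in place of 3.58.

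The 3 c-ring genes make the same mature protein, so their shares show which gene supplied the transcripts. ATP5G2 made up 41.4 ± 2.498% of their summed counts in SF-Nte (38.5 to 42.9%), above every library of the other groups. Its share was 32.3 ± 3.24% in EV, 35.0 ± 1.45% in FL, 27.6 ± 3.99% in FL-mut and 33.7 ± 4.13% in SF-mut (SD, n = 3). ATP5G3 ran the other way, with 31.5% in SF-Nte, 39.0% in EV and 47.9% in FL-mut. ATP5G1 had 28.8% in EV and 21.2% in FL. The difference of 9.13 percentage points in ATP5G2 between SF-Nte and EV gave a two-sided exact permutation p of 0.1, the smallest that 3 against 3 allows, and 0.233 after adjustment over 21 comparisons.

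**Figure D5:**
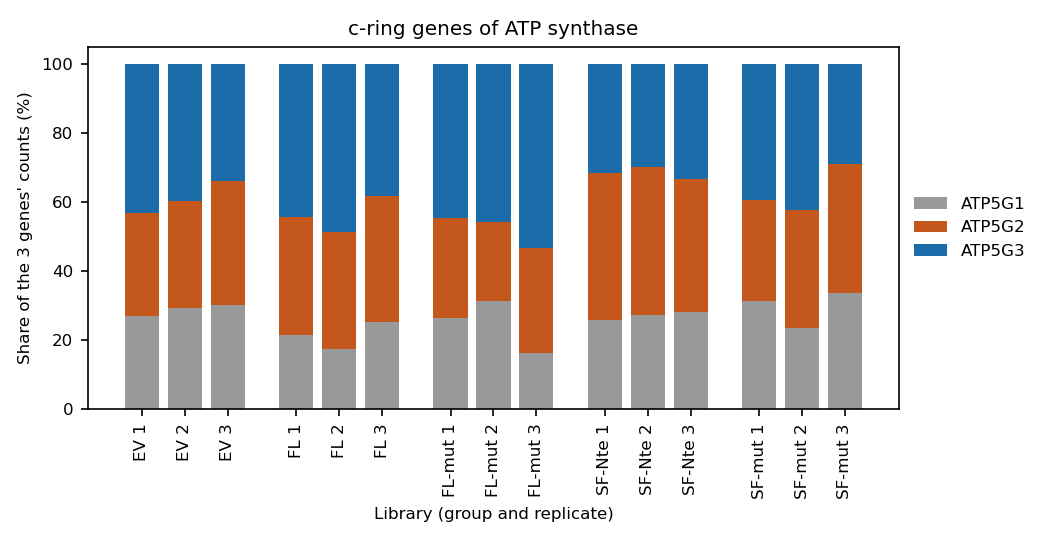
Share of the summed counts of ATP5G1, ATP5G2 and ATP5G3, in percent, in each library (bars stacked to 100, from 0). ATP5G2 takes 38.5 to 42.9% in the 3 SF-Nte libraries, more than in the other 12.

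Some counts are shared with near copies or neighbours. Reads assigned to UQCRHL, a copy of UQCRH, numbered 14.7 to 18.0% of those of UQCRH, and the pseudogenes ATP5EP2 and NDUFV2P1 had 9.11 to 13.3% of ATP5E and 4.67 to 18.3% of NDUFV2. The levels of those 3 members are uncertain to that extent. Of the 69 members, 34 overlap another protein-coding gene, 27 of them on the opposite strand, and whether counting used strand is not given in the sources used here. All counts of NDUFB7 and CYC1 were even numbers, and the cause of this was not tested. NDUFA4 is named as a complex I subunit but is now assigned to cytochrome oxidase, and ATP5S is not a structural subunit.

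Other mitochondrial genes were read beside them, from lists compiled with earlier results of these data known. In FL-mut against FL, 4.83% of all tested genes were lower and 7.3% higher at an unadjusted p of 0.05. The nuclear subunits of cytochrome c oxidase, with 11 of 15 listed genes tested, had a median of -0.55 in FL-mut against FL, with 4 lower and 2 higher at an unadjusted p of 0.05. In SF-mut against SF-Nte their median was -0.40. COX7C, a small oxidase subunit, differed between FL-mut and FL by -0.98 ± 0.24 (edgeR adjusted p = 0.19). The mitochondrial ribosome's large subunit (44 of 48 tested) had a median of 0.16 there, with 4 higher and 2 lower, and assembly factors (22 of 27) had -0.16, with 1 in each direction. Citric acid cycle genes (15 of 17) had 0.24, with 3 higher and 0 lower, carriers and cytochrome c (13 of 17) had 1.10, with 3 higher and 2 lower, and biogenesis regulators (6 of 14) had -0.03, with 2 higher and 1 lower.

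Few genes of these lists passed the adjusted threshold. MRPL36, a protein of the mitochondrial ribosome, changed over the 5 groups (edgeR adjusted p = 0.030) and was higher in SF-Nte than in FL by 1.02 ± 0.21 (edgeR adjusted p = 0.028). MYC, a regulator of growth and mitochondrial genes, was higher in SF-Nte than in FL by 2.73 ± 0.62 (edgeR adjusted p = 0.044). UQCC2, an assembly factor of complex III, had an edgeR adjusted p of 0.076 over the 5 groups. None of the 13 protein genes of mitochondrial DNA was found among the 18485 genes read, and why is not given. The mitochondrially encoded subunits of complexes I, III and V therefore cannot be set beside the nuclear ones.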

How the data were processed

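Poly(A) RNA from 15 SNB19 libraries in 5 groups of 3 was extracted with Trizol, purified on beads and sequenced as Nanopore PCR-amplified cDNA, per the labels' protocols. The authors deposited raw read counts per gene and library, and GRCh38 is named in the submitters' processing notes. For aligner, counter, annotation and strand the sources used here give nothing. PCR reads carry no molecular identifiers, so reads are not independent molecules.

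Genes were filtered with filterByExpr (minimum count 10, minimum total 15), which left 6767 of 18485 genes, and scaled by TMM. edgeR 4.0.16 (R 4.3.3) fitted a robust quasi-likelihood model with 1 coefficient per group over all 15 libraries, and p-values were adjusted over all tested genes by Benjamini-Hochberg, with a threshold of 0.05. CPM values are TMM-scaled. The model was tested on simulated data first. Those counts were drawn independently per library from the model's own fitted spread. They held neither the GC shifts nor the shared deviations seen here, so the simulation does not speak to them. Transcript length and GC content are medians over GENCODE v29 basic transcripts (18116 of 18485 symbols matched).

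The members and lists were chosen with earlier results of these data known. Members named in the text were, by rule, the 3 of lowest p in each direction per comparison, the 6 of lowest p over the 5 groups, the 2 highest and the lowest per kb of each complex, and core subunits; ZBTB18 and up to 2 genes of lowest p per other list were added. Values of 1 member are not reported here by name. Members named beyond these were chosen after their values were seen. Alternatives were DESeq2 1.42.0 (test and size factors), no filter, only the groups compared, a replicate block, a GC and length offset, and leaving out each library. Leaving out 3 or 4 libraries together, and the interaction, were added after seeing the data. Same-numbered libraries correlated above 0.1 in all 3 pairs only between EV and FL (0.37, 0.16 and 0.52) and between FL and SF-mut (0.16, 0.17 and 0.38), over 1975 genes, so only those groups met the rule for pairing, and EV and FL are the only such groups compared.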

Additional observations from a re-analysis of the deposited data

How the results depend on the processing

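Called members under edgeR, 0 in each comparison, numbered 15 over the 5 groups without the count filter, 9 with DESeq2 and 2 with the replicate block (ATP5G2 and NDUFA2), and 0 to 3 when single libraries were left out. Without the filter they numbered 1 in FL against EV, 6 in FL-mut against EV, 12 in FL-mut against FL, 2 in SF-Nte against EV, 2 in SF-mut against EV and 5 in SF-mut against SF-Nte. DESeq2 called 5 in FL-mut against EV and 8 in FL-mut against FL, and leaving out single libraries gave 0 to 1 in FL-mut against EV. The shares of all genes called under these settings are not given here, so these counts describe the settings and not the members. In FL against EV, whose numbers pair, the block called 0 members. With the replicate block 34 members had an unadjusted p under 0.05 in FL-mut against FL (13% of all genes), 20 in FL-mut against EV (11.3%) and 16 in SF-mut against SF-Nte (8.44%).

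Median log2 differences moved as follows. With the GC and length offset they were -0.18 in FL-mut against FL (-0.17 with the replicate block as well), -0.12 in SF-mut against SF-Nte, -0.022 in SF-Nte against EV (-0.000521 with the block as well) and -0.010 in SF-Nte against FL. SF-Nte against FL was 0.13 with the replicate block and 0.018 without the filter, and SF-mut against EV was -0.33 without the filter. FL-mut against EV was -0.38 without 4 libraries (replicate 1 of EV, replicates 2 and 3 of FL-mut, replicate 2 of SF-mut). Leaving out single libraries gave -0.077 to 0.14 in FL against EV, -0.47 to -0.30 in FL-mut against FL, -0.46 to -0.25 in SF-mut against SF-Nte and 0.046 to 0.12 in SF-Nte against FL.

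Directions turned in 4 genes. Without those 4 libraries NDUFB10 was at -0.20 in FL-mut against EV and -0.017 in FL-mut against FL, and NDUFS7 at -1.29 in FL-mut against FL. Leaving out single libraries, NDUFS7 in SF-mut against EV ran from -0.18 to 5.82, UQCRC1 in SF-mut against EV from -0.56 to 2.19 and NDUFB11 in SF-mut against SF-Nte from -0.46 to 3.69, each lowest without replicate 2 of SF-mut. Without 3 of them (all but replicate 3 of FL-mut) and without all 4, UQCRC1 was at -0.47 and -0.48, and NDUFB11 at -0.48 and -0.47. The cause was not tested. The short-form libraries, the shallowest, limit what can be seen of members with few reads.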
